A study of Mus musculus with 12 samples.

Results

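Primary cortical neurons of mouse embryos that received a short hairpin RNA (shRNA) against Adar were compared with neurons that received the second of 2 control hairpins. The comparison takes in 4 of the 10 samples of the series: 2 replicates of shAdar1 and 2 of shControl2. Every gene of the deposited expected counts entered (23955 genes, of which 14785 passed the filter on low counts), as did every listed editing site with at least 20 reads in each of the 4 samples (4339 of 46689 sites). All cultures came from cortices of C57BL/6J embryos at day 16.5. They were dissociated with papain, infected with a lentivirus carrying a pGreenPuro shRNA construct 1 day after plating, and collected on day 7 from dissection. The control cultures thus also carried a virus and a hairpin, and each group is a mixed culture of cortical cells with 1 hairpin name. The submitters' design text sets shAdar1 against the other control hairpin, shControl1, and uses shControl2 for the Zfr knockdown, so that the pairing described here is not theirs. Values of shControl1 are therefore given for many of the genes and sites, and for each named gene that passed the test in the opposite direction against it.

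Adar encodes ADAR1, an enzyme that deaminates adenosine within double-stranded RNA. The product, inosine, pairs like guanosine in sequencing, so the share of reads with G in place of A at a site is its editing level. Most editing in mammals lies in repeats that fold back on themselves in introns and untranslated regions. A smaller class of sites recodes neuronal receptors and channels, much of it by the second enzyme, ADAR2, which Adarb1 encodes. Loss of ADAR1 editing is known from mouse and human work to leave self RNA visible to MDA5 and PKR, sensors that start an interferon and a translation stress response.

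The gene tables held 22785911 and 27005610 expected counts in the shAdar1 samples and 22112096 and 24504844 in the shControl2 samples. Reads at listed editing sites numbered 535077 and 600316 in shAdar1, against 642035 and 662707 in shControl2. The cultures had the markers of their label: the 4 pan-neuronal markers (Rbfox3, Map2, Tubb3, Snap25) summed to 2900 to 3390 TPM (transcript abundance per length, scaled to library size) in shAdar1 and 3440 to 3680 TPM in shControl2. Glial and progenitor markers were present as well and differed between the shAdar1 replicates. The 5 astrocyte markers summed to 435 and 784 TPM in shAdar1, against 909 and 1100 TPM in shControl2. For the 5 oligodendrocyte lineage markers the sums were 128 and 379 TPM in shAdar1, against 408 and 381 TPM in shControl2. For the 5 progenitor markers they were 110 and 246 TPM in shAdar1, against 286 and 322 TPM in shControl2. The 5 microglia markers summed to at most 0.43 TPM in shAdar1 and 1.18 TPM in shControl2. In such bulk samples, fewer cells of a type and less RNA per cell cannot be told apart.

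The hairpin lowered its target. Adar had 55.0 and 51.5 CPM (counts scaled to a common normalised library size) in the shAdar1 samples, against 139 and 118 CPM in the shControl2 samples. The groups did not overlap, and 41.5% of the shControl2 level remained. The log2 fold change was −1.27 ± 0.13 (SE, n = 2 each), with an adjusted p of 0.000317 by the quasi-likelihood F test of edgeR. In shControl1, Adar stood at 153 and 192 CPM, so that the fold change was larger against that control (−1.69).

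The other editing enzymes did not pass the test. Adarb1 had 118 and 94.9 CPM in shAdar1, against 99.4 and 92.0 CPM in shControl2, and the groups overlapped (log2 fold change 0.16 ± 0.12 SE, adjusted p = 0.35). Adarb2, a family member without known catalytic activity that is mainly neuronal, had 41.5 and 64.6 CPM in shAdar1, against 82.1 and 87.2 CPM in shControl2 (log2 fold change −0.67 ± 0.26 SE, adjusted p = 0.0727). The groups of Adarb2 did not overlap, and its unadjusted p was 0.0273. The adjusted p was 0.0115 with DESeq2 and 0.0171 with only the 4 samples in the fit.

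Zfr and its relative Ilf2, which both carry a DZF domain, moved in opposite directions. Zfr, a zinc finger protein that binds double-stranded RNA, had 323 and 291 CPM in shAdar1, against 422 and 496 CPM in shControl2. Its log2 fold change of −0.58 ± 0.11 (SE, n = 2 each) passed the test (adjusted p = 0.00415), but shControl1 held 290 and 268 CPM, close to shAdar1, and the sign was positive there (0.14). Zfr missed the threshold in a fit without trends on transcript length and GC content, which is described further on (−0.23, adjusted p = 0.0977). Ilf2, the protein NF45, rose to 89.3 and 88.7 CPM in shAdar1, against 60.5 and 57.3 CPM in shControl2 (log2 fold change 0.60 ± 0.12 SE, adjusted p = 0.00576). In shControl1 Ilf2 lay between the other groups, at 61.9 and 72.8 CPM, and it did not pass the test against that control (adjusted p = 0.0525). Ilf2 also missed the threshold against shControl2 when shControl2 replicate 2 was left out (adjusted p = 0.0697).

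**Figure D1:**
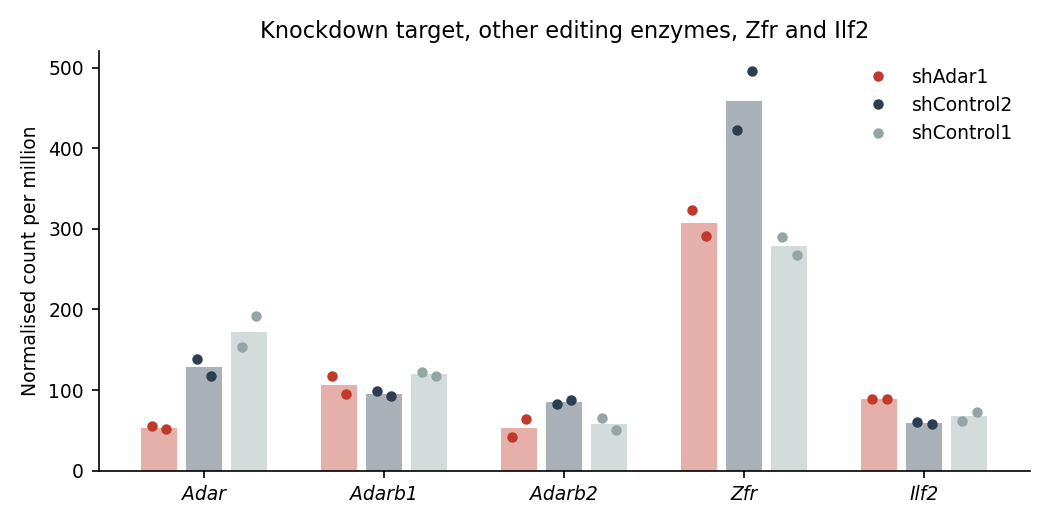
Normalised CPM (y axis) of Adar, Adarb1, Adarb2, Zfr and Ilf2 in shAdar1, shControl2 and shControl1 samples. Points are samples and bars are means of 2. Adar is lower in both shAdar1 samples (55.0 and 51.5 CPM) than in any control sample, and Zfr is high in shControl2 only among the 3 groups.

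As a mean over sites, editing levels were lower in the shAdar1 samples. Over the 882 sites that also had 5 or more edited reads and as many unedited ones over the samples, the mean editing level was 11.9% and 10.5% in the shAdar1 samples, against 16.6% and 16.0% in the shControl2 samples. The group means were 11.2% ± 1.04 in shAdar1 and 16.3% ± 0.403 in shControl2 (SD, n = 2 each), a difference of −5.08 percentage points. An exact two-sided permutation test gave p = 0.333, which is the smallest p that 2 samples against 2 allow. By this mean both shAdar1 samples lay below both shControl2 samples. The mean in shControl1 stood at 23.0% and 22.4%, so that the 2 control groups also differed from each other. With the reads of the 882 sites pooled within a sample, which gives deep sites more weight, the groups overlapped. The pooled level was 15.5% and 12.0% in shAdar1, against 15.0% and 14.4% in shControl2. Over all listed sites, reads pooled within a sample were 4.61% and 3.75% edited in shAdar1, against 5.66% and 5.27% in shControl2 and 7.70% and 8.49% in shControl1.

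Of the 882 tested sites, which form 357 clusters of sites at most 10 kb apart, 135 lost editing in shAdar1 (15.3%) and 4 gained it (0.454%), at an adjusted p under 0.05 in the quasi-likelihood test of edgeR on edited and unedited reads. The 135 sites lay in 93 clusters. Without an adjustment, 236 sites were lower and 26 higher at p under 0.05. The level was lower in shAdar1 at 68.4% of all tested sites, with a median change of −2.44 percentage points. The number of sites edited less rested on each sample: it was 26 without shControl2 replicate 1, 84 without shAdar1 replicate 1, 95 without shAdar1 replicate 2 and 101 without shControl2 replicate 2. The number edited more was between 0 and 11 in the same 4 fits. Against shControl1, 299 of 890 tested sites were edited less in shAdar1 (33.6%).

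At the sites edited less, little editing was left. Their mean level was 5.30% and 5.25% in the shAdar1 samples, against 30.4% and 29.1% in the shControl2 samples. The median site kept 8.05% of its shControl2 level (quartiles 0.0% and 16.2%). Of the 135 sites, 131 kept less than 50% and 109 less than 20% of that level, and 42 had no edited read in either shAdar1 sample. With a median of 34 to 36 reads per tested site and shAdar1 sample, such zeros leave room for several percent of editing. The 743 sites that did not pass the test averaged 13.1% and 11.4% in shAdar1, against 14.1% and 13.7% in shControl2. The test asks for large changes at this depth, so a site among the 743 is not shown to have kept its level. For the same reason the 135 sites, picked by the test on these reads, had to show large losses. The share they kept is no estimate of the editing left at sites in general.

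**Figure D2:**
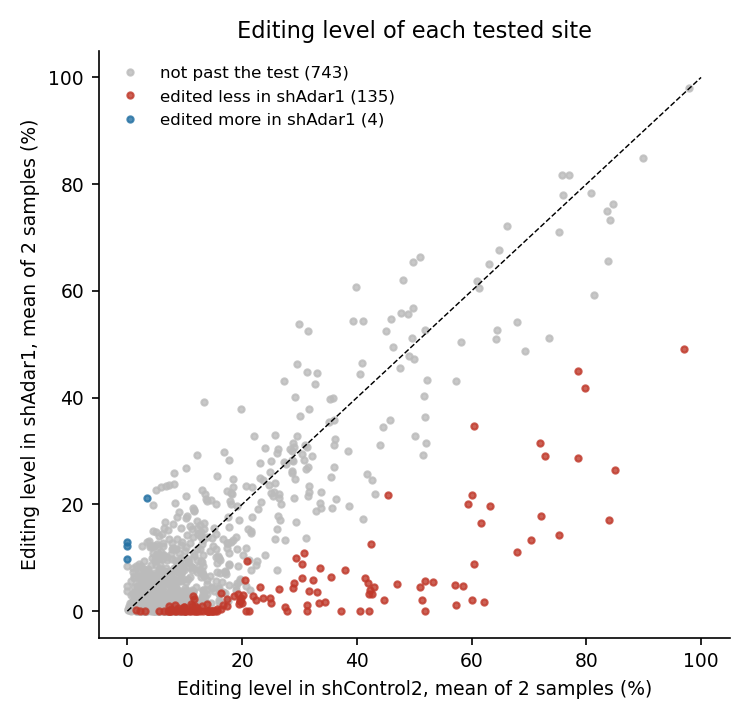
Editing level of the 882 tested sites in percent, as the mean of 2 shAdar1 samples (y axis) against the mean of 2 shControl2 samples (x axis). The 135 sites edited less in shAdar1 (red) lie mostly along the bottom of the plot, the 4 edited more (blue) lie near the left edge, and the dashed line marks equal levels.

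The share of sites edited less depended on how strongly a site was edited in shControl1, a group that the test did not use. Of the 126 sites under 5% in shControl1, 4 were edited less (3.17%). Between 5% and 20% it was 22 of 286 sites (7.69%), and between 20% and 50% it was 48 of 174 (27.6%). Of the 74 sites at 50% or more, 30 were edited less (40.5%). The classes leave out 222 tested sites with under 20 reads in a shControl1 sample, of which 31 were edited less (14.0%). The test has more power at a high level, so the shares do not show that weakly edited sites were spared. The mean levels in these 4 classes, from low to high, were 2.72%, 5.88%, 12.6% and 37.0% in shAdar1, against 3.35%, 7.69%, 19.6% and 55.7% in shControl2.

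Sites edited less were found in sparse and in dense surroundings alike. Among tested sites with no other listed site within 50 bases, 29 of 196 were edited less (14.8%). With 1 or 2 such neighbours it was 32 of 248 (12.9%), with 3 to 5 it was 33 of 154 (21.4%), and with 6 or more it was 41 of 284 (14.4%). They lay on 19 of 20 chromosomes, and the mean level was lower in shAdar1 than in shControl2 on 19 of 20. The exception in both counts was chromosome 13, where the mean over 16 sites was 10.3% in shAdar1 and 10.0% in shControl2.

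The largest single decrease was at position 114196400 of chromosome 12 (mm9, the build of all positions here). Its level was 19.4% of 31 reads and 14.7% of 34 reads in the shAdar1 samples, against 84.6% of 39 reads and 83.3% of 24 reads in the shControl2 samples. The 95% Wilson intervals, which cover counting error only, reached at most 36.3% in shAdar1 and began at 64.1% or higher in shControl2. The change was −66.9 percentage points (log2 odds ratio −4.64 ± 0.68 SE, adjusted p = 2.14e-09). The mm9 positions were not matched to genes here, so the sites are given by position.

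Neighbouring sites of that cluster ranged from a loss of most editing to values that did not pass the test. Position 114196450 fell to 23.4% and 9.80% in shAdar1, against 60.7% and 62.5% in shControl2 (adjusted p = 1.82e-06). Position 114196453 had 72.7% and 80.0% in shAdar1, against 82.5% and 86.9% in shControl2 (adjusted p = 0.43). Position 114196386 had 36.0% and 29.6% in shAdar1, against 21.2% and 23.1% in shControl2 (adjusted p = 0.515). These neighbours were chosen after their values were seen.

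The other 9 sites with the largest decreases had adjusted p-values of 1.87e-05 or less, and at none of them did the groups overlap. Position 125016066 of chromosome 14 had 15.2% and 13.5% in shAdar1, against 71.4% and 78.9% in shControl2. Position 7455551 of chromosome 19 had 3.57% and 0.0% in shAdar1, against 57.7% and 66.7% in shControl2. The zero comes from 21 reads, which allows a level of up to 14.3%. Both sites have a tested neighbour at the adjoining base that was also edited less. Position 125016065 of chromosome 14 had 6.25% and 2.63% in shAdar1, against 40.6% and 45.5% in shControl2. Position 7455552 of chromosome 19 had no edited read among 28 and 20 reads in shAdar1, against 37.0% and 44.0% in shControl2.

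Position 124885339 of chromosome 14 kept the most editing of the 10 sites. It had 32.3% and 20.5% in shAdar1, against 94.3% and 75.8% in shControl2. Position 116442451 of chromosome 11 had 4.00% and 0.0% in shAdar1, against 65.0% and 55.0% in shControl2. The adjoining positions 109623361 and 109623362 of chromosome 10 fell together. The first had 11.5% and 15.0% in shAdar1, against 68.2% and 72.5% in shControl2, and the second had 12.0% and 10.0% in shAdar1, against 76.2% and 59.5% in shControl2. Adjoining sites share reads and are not independent.

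Position 96436383 of chromosome 3 had 2.44% and 0.0% in shAdar1, against 50.0% and 64.6% in shControl2. Position 91258437 of chromosome 17 had 14.8% and 20.8% in shAdar1, against 80.0% and 64.3% in shControl2. Position 22615986 of chromosome 14, with 63 and 96 reads the deepest of the 10 in shAdar1, had 6.35% and 3.12% there, against 57.1% and 60.0% in shControl2. Its adjoining base, 22615987, was edited at a much lower level in all samples, with 0.0% and 1.12% in shAdar1 and 9.52% and 8.00% in shControl2 (adjusted p = 0.0405). Without shControl2 replicate 1, both 91258437 and 124885339 missed the threshold (adjusted p = 0.0592 each).

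The 4 sites edited more lie in 3 clusters, and their changes were smaller. Position 13557579 of chromosome 7 had 24.0% and 18.5% in shAdar1, against 6.82% and 0.0% in shControl2 (adjusted p = 0.0303). Position 29767553 of chromosome 2 had 14.3% and 11.8% in shAdar1 and no edited read in either shControl2 sample, whose 28 and 33 reads allow levels of up to 10.7% and 9.09%. The neighbouring position 29767557 had 11.1% and 8.57% in shAdar1 and likewise no edited read in shControl2 (28 and 35 reads). Position 3387771 of chromosome 9 had 13.5% and 10.8% in shAdar1, against 0.0% in both shControl2 samples, but 8.62% and 16.4% in shControl1. Of the 4 sites, only 29767553 also passed the test against shControl1 (adjusted p = 0.028). None of the 4 passed without either shControl2 replicate: the adjusted p-values of 13557579 were then 0.0789 and 0.258, those of 29767553 were 0.162 and 0.108, those of 3387771 were 0.242 and 0.108, and those of 29767557 were 0.195 and 0.183. Without shAdar1 replicate 1 or 2, 13557579 had 0.147 and 0.075.

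**Figure D3:**
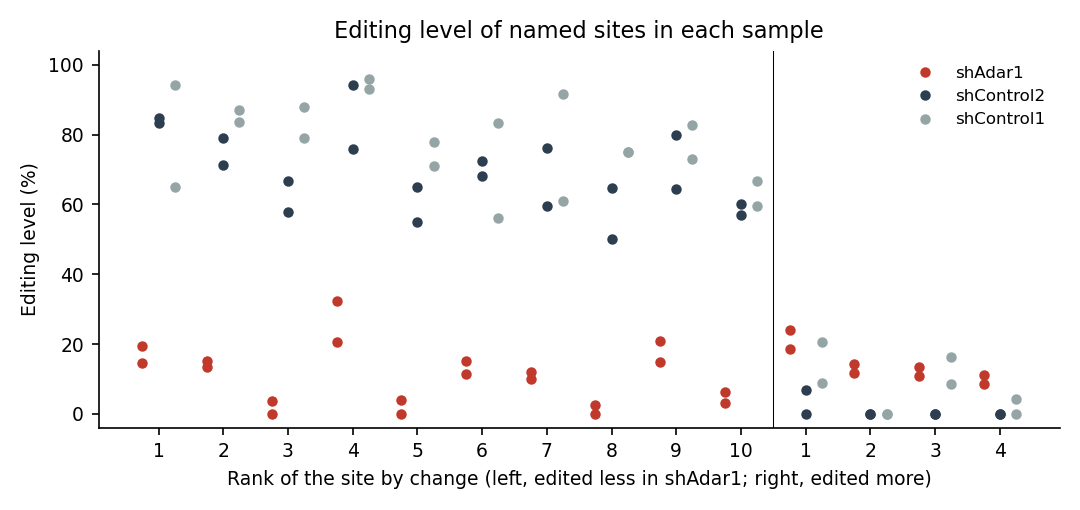
Editing level in percent (y axis) of the 10 sites with the largest decreases (left of the line) and the 4 with the largest increases (right), in rank order, in each shAdar1, shControl2 and shControl1 sample. At each of the 10 decreases both shAdar1 samples (at most 32.3%) lie below all control samples (at least 50.0%).

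Some strongly edited sites did not pass the test against shControl2, and their levels in the series' knockdown of Adarb1 (shAdar2) are given beside them. Of the 74 tested sites at 50% or more in shControl1, 44 did not pass the test, and 6 of those had at least 20 reads in each shAdar2 sample. Position 71472201 of chromosome X had 59.6% and 50.0% in shAdar1 and 1.36% and 3.12% in shAdar2, against 46.6% and 45.4% in shControl2 and 75.0% and 67.3% in shControl1. Position 45799898 of chromosome 17 had 43.6% and 43.2% in shAdar1 and 2.72% and 8.70% in shAdar2, against 54.3% and 50.0% in shControl2 and 60.9% and 56.0% in shControl1. Position 158210689 of chromosome 2 had 40.1% and 31.4% in shAdar1 and 8.68% and 2.08% in shAdar2, against 44.0% and 47.6% in shControl2 and 68.5% and 66.3% in shControl1. Position 80496208 of chromosome 3 had 55.8% and 43.2% in shAdar1 and 21.2% and 17.3% in shAdar2, against 51.7% and 40.7% in shControl2 and 68.7% and 73.0% in shControl1. Low levels were not particular to shAdar2. In the Zfr knockdown the mean was 13.1% at 71472201, 11.9% at 45799898, 7.92% at 158210689 and 20.8% at 80496208.

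At these 4 sites both shAdar2 samples lay below all shAdar1 and control samples. The same held, by less, at position 80510834 of chromosome 3. It had 98.8% and 97.4% in shAdar1 and 83.3% and 94.3% in shAdar2, against 98.1% and 97.6% in shControl2 and 98.0% and 99.0% in shControl1. Position 75114517 of chromosome 11 had 81.4% and 65.3% in shAdar1 and 88.9% and 85.7% in shAdar2, against 81.6% and 86.7% in shControl2 and 91.3% and 96.0% in shControl1. The means in the Zfr knockdown were 92.5% at 80510834 and 66.3% at 75114517. Of the 30 sites at 50% or more in shControl1 that were edited less in shAdar1, 2 had such coverage in shAdar2. Their mean levels there were 53.7% and 54.0%.

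Against shControl1, 3 of the 6 sites were edited less in shAdar1. The change was −31.7 percentage points at 158210689 (adjusted p = 0.000659), −21.3 at 80496208 (adjusted p = 0.00732) and −20.3 at 75114517 (adjusted p = 0.0102). The 6 sites were singled out after the values were seen, and their levels in shAdar2 and in the Zfr knockdown were not tested. They were also chosen by a high level in shControl1, which favours a drop from that control. These 3 results are therefore no independent test.

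Averages were also taken over all tested sites that had 20 reads in the shControl1 and shAdar2 samples too. The 14 of them that were edited less in shAdar1 averaged 5.03% and 2.98% there, 24.7% and 26.3% in shAdar2, 19.1% and 19.9% in shControl2 and 25.6% and 27.3% in shControl1. The 62 that did not pass the test averaged 13.0% and 10.3% in shAdar1, 7.79% and 6.93% in shAdar2, 12.5% and 11.9% in shControl2 and 16.0% and 16.7% in shControl1. Coverage in shAdar2 entered the choice of these sites and the levels there did not, but the 62 include the 6 sites above. With 11 clusters behind the 14 sites and 24 behind the 62, the averages rest on few transcripts, and the difference was not tested.

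Gene expression differed widely between shAdar1 and shControl2. Of 14785 tested genes, 2860 were higher in shAdar1 (19.3%) and 2049 lower (13.9%). Leaving out a sample changed these numbers by up to 3-fold, to 956 higher and 814 lower without shControl2 replicate 2, 1807 and 1476 without shAdar1 replicate 1, 1970 and 1289 without shAdar1 replicate 2, and 1946 and 1642 without shControl2 replicate 1. The 2 control groups differed from each other at more genes, with 2937 genes higher in shControl2 than in shControl1 (19.9%) and 3430 lower (23.2%). Against shControl1, 1380 genes were higher in shAdar1 (9.33%) and 1020 lower (6.9%). Both comparisons of shAdar1 share its samples.

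The direction of change followed transcript length. Of the 604 tested genes with transcripts under 800 nucleotides, 61.8% were higher in shAdar1 and 0.331% lower, with a median log2 fold change of 1.04. Of the 1583 genes of 6000 nucleotides or more, 5.5% were higher and 35.1% lower, with a median of −0.29. It also followed GC content: the median was 0.49 for genes with 60% GC or more and −0.55 for genes under 40%. Against shControl1 the medians over the same length classes lay between −0.04 and 0.05. Genes under 800 nucleotides held 21.6% and 23.1% of TPM in the shAdar1 samples, 12.9% and 10.8% in the shControl2 samples and 21.8% and 19.0% in the shControl1 samples. In the Zfr knockdown (shZfr), they held 11.7% and 11.6%, near the shControl2 shares. In the libraries of shAdar2 it was 20.7% to 26.5%. The mean fragment length, from the deposited effective lengths, was 225.4 and 220.3 nucleotides in shAdar1, 234.5 and 230.1 in shControl2 and 209.7 and 210.5 in shControl1.

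A second fit, chosen after the data were seen, removed the trends on length and GC from every sample. Its values stand below beside the list counts and beside each named gene whose call it changes. In that fit 1843 genes were higher (12.5%) and 1083 lower (7.32%). Each list count below against shControl2 with all samples is to be read beside these shares, or beside 19.3% and 13.9% as counted. List counts against shControl1 are to be read beside 9.33% higher and 6.9% lower. Those with a sample left out belong beside the smaller numbers of that fit, given above. The trend-removed fit shared 1357 of the genes called higher. This is 47.4% of those called as counted and 73.6% of those called with the trends removed. For lower genes it shared 863, which is 42.1% and 79.7% of the 2 lists. Without shControl2 replicate 2 the trend-removed counts were 427 and 194. No label names a batch that would set shControl2 and shZfr apart from the other groups. Whether the trends come from library preparation or from the cells was not tested, and removing them also removes any real change that goes with length.

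**Figure D4:**
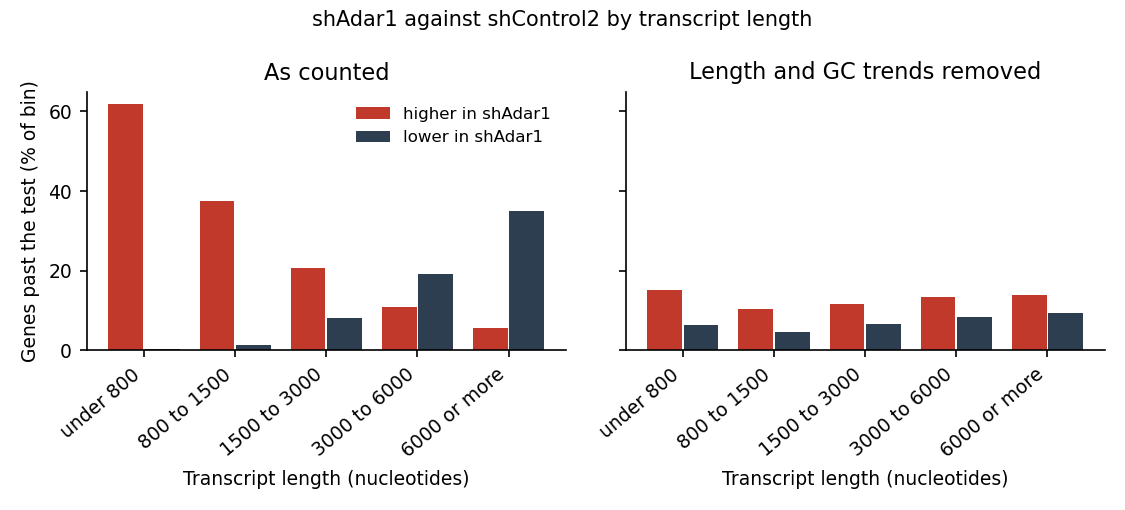
Percentage of tested genes called higher (red) or lower (dark) in shAdar1 than in shControl2 (y axis) by transcript length (x axis), as counted (left) and with length and GC trends removed (right). As counted, 61.8% of genes under 800 nucleotides were higher and 35.1% of genes of 6000 nucleotides or more were lower. With the trends removed the bars differ less across the classes, from 10.3% to 15.1% higher and from 4.57% to 9.48% lower.

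Few sensors and targets of the double-stranded RNA response passed the test. Of 37 tested interferon-stimulated genes, 1 was higher and 1 lower (2.7% each way, against 19.3% and 13.9% over all tested genes). With the trends removed none was higher and 1 lower. The median log2 fold change as counted was −0.19, against 0.03 over all tested genes. Cxcl10, a chemokine, fell to 0.410 and 0.442 CPM in shAdar1, against 1.53 and 1.60 CPM in shControl2 (log2 fold change −1.86 ± 0.46 SE, adjusted p = 0.0125), and it also passed with the trends removed (adjusted p = 0.0116). Ifi27 had 2.19 and 2.18 CPM in shAdar1, against 0.859 and 0.731 CPM in shControl2 (adjusted p = 0.0447), but did not pass with the trends removed (adjusted p = 0.309). Many genes of this list were near zero: Isg15 had 3 counts and Ifit1 11 counts over all 4 samples. Neither call was secure: without single samples the adjusted p of Ifi27 was 0.116 to 0.23, and that of Cxcl10 was 0.0556 and 0.0619 without shAdar1 replicate 1 and 2 and 0.0646 without shControl2 replicate 2.

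Among 18 tested sensors and binders of double-stranded RNA, none was higher and 1 was lower as counted (5.56%). Some of the 18 could hardly pass, with 0 counts over the 4 samples for Oas1a and 2 each for Oas2 and Zbp1. Dicer1, which cuts microRNA precursors, was the lower gene, with 182 and 156 CPM in shAdar1 against 215 and 227 CPM in shControl2, but its log2 fold change was −0.39 as counted and −0.03 with the trends removed. With the trends removed, 4 of the 18 were higher, by 0.39 to 0.66 on the log2 scale, among them Stau2, Dhx9 and Dgcr8, which were picked out after their values were seen. Eif2ak2, which encodes PKR, had 5.74 and 11.2 CPM in shAdar1, against 17.3 and 23.9 CPM in shControl2 (log2 fold change −1.27 ± 0.44 SE, adjusted p = 0.0512). Its adjusted p was 0.00372 with DESeq2, 0.00923 with only the 4 samples in the fit and 0.125 with the trends removed. The adjusted p of Dicer1 was 0.202 without shAdar1 replicate 2 and 0.0568 and 0.143 without shControl2 replicate 1 and 2.

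Stress and inflammation lists are given beside the 19.3% higher and 13.9% lower over all tested genes. Of 20 genes of the integrated stress and unfolded protein responses, 1 was lower (5.0%) and none higher: Slc7a11, a cystine transporter, with 16.9 and 24.3 CPM in shAdar1 against 46.6 and 56.8 CPM in shControl2. It did not pass with the trends removed (adjusted p = 0.218), where 1 other gene of the list was higher. Of 11 NF-kappaB genes, 1 was higher (9.09%). Cxcl2, Ccl2 and Cxcl1 of that list had 0, 5 and 10 counts over the 4 samples and could hardly pass. The higher gene was Nfkbia, the inhibitor IkappaB alpha, with 11.8 and 11.9 CPM in shAdar1 against 7.40 and 5.52 CPM in shControl2. Its adjusted p was 0.00841 as counted and 0.0906 with the trends removed, where 1 other gene of the list was higher. That of Nfkbia was 0.108 without shControl2 replicate 2, and that of Slc7a11 was between 0.0636 and 0.162 without any 1 of the 4 samples.

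Of 24 tested p53 targets, 3 were higher and 3 lower, 12.5% each way against 19.3% and 13.9% over all tested genes, and with the trends removed 2 were higher and 3 lower. Zmat3, an RNA-binding protein, rose to 160 and 161 CPM in shAdar1, against 71.8 and 70.2 CPM in shControl2 (log2 fold change 1.18 ± 0.09 SE, adjusted p = 0.00016). In shControl1 it stood at 159 and 161 CPM, the level of shAdar1, and the change against shControl2 was 1.49 with the trends removed. Bax, a mediator of apoptosis, rose to 25.7 and 28.8 CPM in shAdar1, against 11.5 and 9.91 CPM in shControl2, but did not pass with the trends removed (adjusted p = 0.108).

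Trp53inp1, a stress-induced nuclear protein, fell to 75.0 and 94.1 CPM in shAdar1, against 174 and 244 CPM in shControl2 (log2 fold change −1.31 ± 0.19 SE, adjusted p = 0.00105). Ccng1, cyclin G1, fell to 112 and 139 CPM in shAdar1, against 238 and 292 CPM in shControl2 (log2 fold change −1.08 ± 0.17 SE, adjusted p = 0.00154). Both also passed with the trends removed, and both fell against shControl1. Against that control 14 of the 24 targets were lower and none higher, where 6.9% of all tested genes were lower and 9.33% higher.

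Of 19 tested GABA type A and glycine receptor genes, the receptors of fast inhibition, 3 were lower and 1 higher against shControl1. Against shControl2, 8 were lower (42.1%) and none higher, with a median log2 fold change of −0.46. It was 4 lower without shControl2 replicate 2, and with the trends removed 2 lower and 1 higher (median −0.16). Gabra4, the alpha 4 subunit, fell to 47.7 and 48.4 CPM in shAdar1, against 79.9 and 94.6 CPM in shControl2 (log2 fold change −0.86 ± 0.13 SE), with an adjusted p of 0.00134 as counted and 0.0501 with the trends removed.

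Gabrb2 had 248 and 236 CPM in shAdar1, against 344 and 401 CPM in shControl2, and fell as counted (adjusted p = 0.00174) but not with the trends removed (adjusted p = 0.17). Glrb, the beta subunit of glycine receptors, followed that pattern, with 107 and 89.9 CPM in shAdar1 against 148 and 170 CPM in shControl2. The markers of interneurons, which also carry these receptors, had 2 of 20 genes lower (10.0%) and none higher as counted. With the trends removed the numbers were the same, for 2 different genes. Against shControl1, as counted, 6 of the 20 were higher and none lower. Gad2, an enzyme of GABA synthesis, had 101 and 153 CPM in shAdar1, against 229 and 277 CPM in shControl2 (adjusted p = 0.0135, 0.129 with the trends removed, 0.0848 without shAdar1 replicate 1 and 0.105 without shControl2 replicate 2). Calb1, a calcium buffer, had 44.1 and 44.3 CPM in shAdar1, against 105 and 108 CPM in shControl2 (adjusted p = 0.00189, and 0.0781 with the trends removed). In shControl1 Calb1 was at 27.1 and 18.9 CPM, and it was higher in shAdar1 than there (0.94, adjusted p = 0.0158).

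Of 18 AMPA and kainate receptor genes, 8 were lower (44.4%) and 1 higher (5.56%) as counted. With the trends removed 5 were lower and 1 higher. Against shControl1, as counted, the balance was the opposite, with 6 higher and 1 lower (median log2 fold change 0.33). As counted, 3 were lower without shControl2 replicate 2. Gria2, the AMPA receptor subunit whose recoding by ADAR2 limits calcium entry, had 1070 and 947 CPM in shAdar1, against 1530 and 1730 CPM in shControl2 (log2 fold change −0.70 ± 0.11 SE, adjusted p = 0.0019). With the trends removed its log2 fold change was 0.11 (adjusted p = 0.555). Grik3, a kainate receptor subunit, fell to 48.7 and 56.7 CPM in shAdar1, against 124 and 126 CPM in shControl2 (log2 fold change −1.24 ± 0.21 SE, adjusted p = 0.00231). Cacng2, the AMPA receptor partner stargazin, fell to 36.3 and 30.4 CPM in shAdar1, against 55.2 and 53.1 CPM in shControl2 (log2 fold change −0.70 ± 0.13 SE, adjusted p = 0.00374). Grik3 and Cacng2 kept changes of −1.14 and −0.75 with the trends removed, but shControl1 held 46.6 and 46.7 CPM of Grik3 and 38.2 and 33.3 CPM of Cacng2, close to shAdar1.

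Of 13 NMDA and metabotropic glutamate receptor genes, 5 were lower (38.5%) and 2 higher (15.4%). With the trends removed 2 were lower and 1 higher. Against shControl1, as counted, 2 were lower and 2 higher. Grm5, a receptor that signals through Gq, fell to 584 and 563 CPM in shAdar1, against 1150 and 1300 CPM in shControl2 (log2 fold change −1.10 ± 0.11 SE, adjusted p = 0.000317). Grm2, a receptor that inhibits release, rose to 19.6 and 19.3 CPM in shAdar1, against 7.63 and 6.35 CPM in shControl2 (log2 fold change 1.48 ± 0.24 SE, adjusted p = 0.00192). Both also passed with the trends removed, at −0.58 and 1.28. In shControl1 Grm5 was at 408 and 344 CPM and Grm2 at 21.9 and 38.3 CPM, so that the sign of both was the opposite against that control, and Grm5 passed in that direction (0.61, adjusted p = 0.00802).

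Among 33 voltage-gated ion channel genes, 11 were lower (33.3%) and 1 higher (3.03%) as counted. With the trends removed 4 were lower and 3 higher. Against shControl1, as counted, 3 were lower and 6 higher. Kcna2, a potassium channel of axons, fell to 103 and 103 CPM in shAdar1, against 174 and 179 CPM in shControl2 (log2 fold change −0.78 ± 0.09 SE, adjusted p = 0.000385). Scn3b, an auxiliary sodium channel subunit, fell to 256 and 222 CPM in shAdar1, against 348 and 349 CPM in shControl2 (log2 fold change −0.54 ± 0.10 SE, adjusted p = 0.003). Both passed with the trends removed and also against shControl1.

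Of 30 presynaptic genes, 11 were lower (36.7%) and 4 higher (13.3%). With the trends removed 5 were lower and 3 higher. Against shControl1, as counted, 2 were lower and 4 higher. Sv2b, a synaptic vesicle protein, fell to 129 and 90.7 CPM in shAdar1, against 226 and 255 CPM in shControl2 (log2 fold change −1.13 ± 0.19 SE, adjusted p = 0.00213), and shControl1 had 192 and 236 CPM. Rims2, an active zone scaffold, fell to 78.3 and 89.0 CPM in shAdar1, against 127 and 147 CPM in shControl2. Cplx2, complexin 2, fell to 347 and 351 CPM in shAdar1, against 650 and 549 CPM in shControl2. The direction was the opposite against shControl1, which had 215 and 164 CPM of Cplx2 (0.88, adjusted p = 0.00415). Rab3a, a vesicle GTPase, rose to 198 and 173 CPM in shAdar1, against 99.6 and 86.3 CPM in shControl2, but shControl1 had 208 and 209 CPM. All 4 genes passed against shControl2 in both fits.

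Of 23 postsynaptic genes, 6 were lower (26.1%) and 2 higher (8.7%). With the trends removed 3 were lower and 2 higher. Against shControl1, as counted, 1 was lower and 3 were higher. Lrrtm2, a synaptic adhesion protein, fell to 70.3 and 72.4 CPM in shAdar1, against 157 and 187 CPM in shControl2 (log2 fold change −1.27 ± 0.11 SE, adjusted p = 0.000227), and its change was −0.57 with the trends removed (adjusted p = 0.0016). In shControl1 Lrrtm2 stood at 80.6 and 75.6 CPM, close to shAdar1 (−0.13, adjusted p = 0.464). Camk2b, a kinase subunit of excitatory synapses, rose to 698 and 568 CPM in shAdar1, against 398 and 342 CPM in shControl2 (log2 fold change 0.78 ± 0.14 SE, adjusted p = 0.00351, and 0.73 with the trends removed). Homer1, a scaffold that binds Grm5, had 166 and 141 CPM in shAdar1, against 263 and 280 CPM in shControl2, and its change of −0.82 as counted became −0.11 with the trends removed (adjusted p = 0.48). The adjusted p of Camk2b was 0.0626 without shControl2 replicate 2.

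Excitatory cortical markers had 8 of 17 genes lower (47.1%) and 2 higher (11.8%), and 4 lower and 1 higher with the trends removed. Against shControl1, as counted, none was lower and 4 were higher. Tbr1, a transcription factor of deep layers, fell to 101 and 110 CPM in shAdar1, against 147 and 156 CPM in shControl2 (log2 fold change −0.53 ± 0.12 SE, adjusted p = 0.00869). Nrgn, neurogranin, fell to 41.3 and 33.9 CPM in shAdar1, against 86.9 and 79.0 CPM in shControl2 (log2 fold change −1.14 ± 0.28 SE, adjusted p = 0.0128). Cux2, a transcription factor of upper layers, rose to 64.5 and 70.4 CPM in shAdar1, against 50.4 and 41.2 CPM in shControl2 (log2 fold change 0.56 ± 0.14 SE, adjusted p = 0.0138). All 3 passed with the trends removed, but of these genes only Cux2 kept its sign against shControl1. There Tbr1 had 72.2 and 66.0 CPM and passed in the opposite direction (0.61, adjusted p = 0.0104). None of the 3 passed without shControl2 replicate 2 (adjusted p = 0.0549 for Tbr1, 0.0587 for Nrgn and 0.173 for Cux2). Without shAdar1 replicate 2, Cux2 had 0.0776 and Nrgn 0.0839, and without shControl2 replicate 1 Nrgn had 0.0566.

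Axon growth genes had 3 of 36 higher (8.33%) and 4 lower (11.1%) as counted, below the 19.3% and 13.9% over all tested genes. With the trends removed 10 were higher and 2 lower. Against shControl1, as counted, 7 were higher and 6 lower. Stmn1, which destabilises microtubules, rose to 1550 and 1350 CPM in shAdar1, against 585 and 551 CPM in shControl2 (log2 fold change 1.36 ± 0.11 SE, and 0.81 with the trends removed). Epha7, an ephrin receptor, fell to 116 and 110 CPM in shAdar1, against 245 and 294 CPM in shControl2 (log2 fold change −1.25 ± 0.13 SE, and −0.78 with the trends removed). Stmn1 was at 1400 and 1510 CPM in shControl1, the level of shAdar1.

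Splicing factors and neuronal RNA-binding proteins had 7 of 39 genes higher and 7 lower as counted (17.9% each way, against 19.3% and 13.9% over all tested genes), and 16 higher and 2 lower with the trends removed. Mbnl1 and Mbnl2, regulators of splicing during maturation, were the 2 lower genes in both fits. Mbnl1 fell to 62.6 and 70.8 CPM in shAdar1, against 151 and 186 CPM in shControl2 (log2 fold change −1.33 ± 0.12 SE, adjusted p = 0.000232). Mbnl2 fell to 59.5 and 59.3 CPM in shAdar1, against 115 and 129 CPM in shControl2 (log2 fold change −1.04 ± 0.15 SE, adjusted p = 0.000952). Cirbp, a cold-induced RNA-binding protein, rose to 58.8 and 64.9 CPM in shAdar1, against 35.7 and 30.6 CPM in shControl2 (log2 fold change 0.90 ± 0.13 SE, adjusted p = 0.00122). Mbnl2 and Cirbp passed against shControl1 in the same direction, and Mbnl1 did not (adjusted p = 0.319).

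Of 16 microRNA processing genes, 4 were lower and 1 higher against shControl1. Against shControl2, 7 were lower (43.8%) and none higher, with a median log2 fold change of −0.36, and with the trends removed 3 were lower and 1 higher. Leaving out a sample gave between 4 and 7 lower genes. Tnrc6b, a scaffold of the silencing complex, fell to 351 and 339 CPM in shAdar1, against 651 and 696 CPM in shControl2 (log2 fold change −0.96 ± 0.09 SE, adjusted p = 0.000239). Its paralog Tnrc6a fell to 160 and 154 CPM in shAdar1, against 250 and 284 CPM in shControl2 (log2 fold change −0.76 ± 0.12 SE, adjusted p = 0.00151). Ago1, an Argonaute protein that holds the microRNA, fell to 142 and 141 CPM in shAdar1, against 231 and 219 CPM in shControl2 (log2 fold change −0.67 ± 0.11 SE, adjusted p = 0.00197). These 3 were the genes that were also lower with the trends removed, by 0.53, 0.42 and 0.47, and all 3 were lower than in shControl1. Ago3 fell as counted but missed the threshold with the trends removed (adjusted p = 0.0514).

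**Figure D5:**
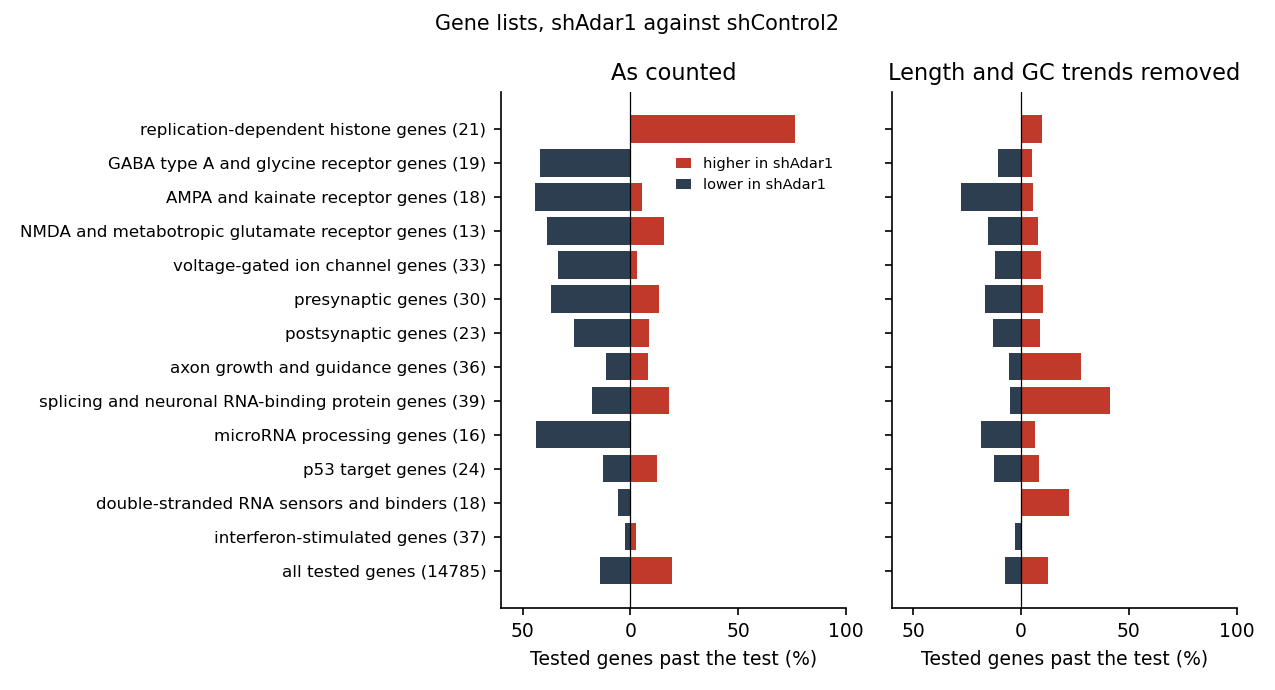
Percentage of the tested genes of 13 lists and of all tested genes that were called higher (red, right) or lower (dark, left) in shAdar1 than in shControl2, as counted and with length and GC trends removed. Numbers in brackets are tested genes. As counted 16 of 21 histone genes were higher and 8 of 19 inhibitory receptor genes lower, and with the trends removed 2 and 2 were.

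Replication-dependent histone genes, whose short messages end in a stem-loop and lack a poly(A) tail, were higher as counted. Of 21 tested genes, 6 rose and none fell against shControl1. Against shControl2, 16 rose (76.2%) and none fell, with a median log2 fold change of 1.39. The median transcript of the list is 502 nucleotides long, and with the trends removed 2 genes rose and none fell (median 0.37). Hist1h3e rose to 18.4 and 31.4 CPM in shAdar1, against 5.30 and 2.24 CPM in shControl2 (log2 fold change 2.73 ± 0.41 SE, adjusted p = 0.00132). Hist1h4c rose to 54.1 and 72.8 CPM in shAdar1, against 16.4 and 8.31 CPM in shControl2 (log2 fold change 2.36 ± 0.37 SE, adjusted p = 0.00166). These 2 were also higher with the trends removed, by 1.47 and 1.06. The summed level of the list was 582 and 1040 CPM in the shAdar1 samples, against 358 and 292 CPM in the shControl2 samples and 562 and 369 CPM in the shControl1 samples. Histone genes are near-identical copies of each other, so that counts of single members are uncertain. Pcna, a replication factor, rose to 47.4 and 71.2 CPM in shAdar1, against 34.4 and 36.6 CPM in shControl2 (adjusted p = 0.0185), and missed the threshold with the trends removed (adjusted p = 0.0855). No other of the 19 progenitor genes passed. Without shAdar1 replicate 2 or either shControl2 replicate, Pcna did not pass (adjusted p = 0.144, 0.11 and 0.106).

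Of 28 genes known as editing targets, 10 were lower (35.7%) and 1 higher (3.57%) as counted. With the trends removed 2 were lower and 3 higher. Against shControl1, as counted, 4 were lower and 4 higher. Unc80, part of the sodium leak channel, fell to 82.8 and 76.1 CPM in shAdar1, against 187 and 232 CPM in shControl2 (log2 fold change −1.40 ± 0.19 SE, adjusted p = 0.000912), and remained at −1.02 with the trends removed. In shControl1 it was at 74.3 and 81.2 CPM. Nova1, a splicing factor, had 23.3 and 36.9 CPM in shAdar1, against 72.0 and 89.3 CPM in shControl2, and passed as counted (adjusted p = 0.00189) but not with the trends removed (adjusted p = 0.0628).

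Of 13 genes of nuclear bodies and paraspeckles, 6 were lower and 2 higher as counted (median log2 fold change −0.08), none was lower and 2 were higher with the trends removed, and none passed without shControl2 replicate 2. The shares as counted were 46.2% lower and 15.4% higher. Against shControl1, as counted, 1 was lower and 3 were higher. Malat1 had 25500 and 21900 CPM in shAdar1, against 35700 and 42000 CPM in shControl2 (log2 fold change −0.72 ± 0.18 SE, adjusted p = 0.0137, and 0.39 with the trends removed). Meg3, an imprinted long noncoding RNA, had 5040 and 4230 CPM in shAdar1, against 7710 and 8260 CPM in shControl2 (log2 fold change −0.78 ± 0.17 SE, adjusted p = 0.00745, and 0.0607 with the trends removed). Without shControl2 replicate 2 the adjusted p was 0.0993 for Malat1 and 0.0568 for Meg3, and with only the 4 samples in the fit Malat1 had 0.179.

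Lysosomal genes had 5 of 24 higher (20.8%) and 2 lower (8.33%), close to the 19.3% and 13.9% over all tested genes, and 2 higher and 2 lower with the trends removed. Cholesterol synthesis genes had 2 of 22 higher (9.09%) and none lower, and 1 higher with the trends removed. Npc2, which carries cholesterol out of lysosomes, rose to 59.3 and 56.9 CPM in shAdar1, against 37.7 and 35.5 CPM in shControl2 (log2 fold change 0.67 ± 0.12 SE, adjusted p = 0.003). Tm7sf2, a sterol reductase, rose to 21.4 and 16.6 CPM in shAdar1, against 9.16 and 7.49 CPM in shControl2 (log2 fold change 1.19 ± 0.22 SE, adjusted p = 0.00336). Both Npc2 and Tm7sf2 passed with the trends removed. Without shControl2 replicate 2, Npc2 had an adjusted p of 0.054 and Tm7sf2 of 0.0566.

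Markers of glia and of mesenchymal cells changed in single members. Of 15 astrocyte genes 2 were lower (13.3%), whereas against shControl1 5 were higher and none lower. The 2 lower genes were Slc1a2 and S100b. Slc1a2, a glutamate transporter, had 545 and 595 CPM in shAdar1 against 959 and 1150 CPM in shControl2. S100b had 0.638 and 1.77 CPM in shAdar1 against 8.83 and 10.3 CPM in shControl2. The adjusted p-values were 0.00206 and 0.0136 as counted, and 0.058 and 0.0186 with the trends removed. In shControl1 Slc1a2 was at 335 and 252 CPM, and it was higher in shAdar1 than there (0.96, adjusted p = 0.00355). The adjusted p of S100b was 0.0787 without shAdar1 replicate 1 and 0.0824 without shControl2 replicate 2. Mbp, a myelin protein, fell to 9.61 and 11.9 CPM in shAdar1, against 28.9 and 25.5 CPM in shControl2, but shControl1 had 7.57 and 10.1 CPM. It was the 1 lower gene of 9 oligodendrocyte lineage genes (11.1%). Dcn, a proteoglycan of fibroblasts, fell to 5.78 and 4.98 CPM in shAdar1, against 19.3 and 21.7 CPM in shControl2 (adjusted p = 0.026), but had 1.08 and 1.26 CPM in shControl1 and was higher in shAdar1 than there (2.2, adjusted p = 0.0417). It did not pass against shControl2 with the trends removed (adjusted p = 0.106) or without any 1 of the 4 samples (adjusted p between 0.0726 and 0.132). Dkk3, a secreted protein of the Dickkopf family, fell to 23.2 and 21.5 CPM in shAdar1, against 61.1 and 75.1 CPM in shControl2 (log2 fold change −1.61 ± 0.19 SE, adjusted p = 0.000459), and had 16.4 and 14.1 CPM in shControl1.

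Among genes that reached 5 CPM in the higher group, the largest decreases were mostly receptors and peptides at low levels. Oprk1, the kappa opioid receptor, fell to 0.182 and 0.258 CPM in shAdar1, against 4.63 and 7.03 CPM in shControl2 (log2 fold change −4.68 ± 0.82 SE, adjusted p = 0.00281). Trhr, the receptor of thyrotropin-releasing hormone, fell to 6.29 and 4.61 CPM in shAdar1, against 31.6 and 49.4 CPM in shControl2 (log2 fold change −2.90 ± 0.26 SE, adjusted p = 0.000231). Npy2r, a neuropeptide Y receptor, fell to 1.32 and 1.73 CPM in shAdar1, against 10.1 and 11.0 CPM in shControl2. Nts, the peptide neurotensin, fell to 4.19 and 2.58 CPM in shAdar1, against 16.5 and 23.5 CPM in shControl2. Cr2, a complement receptor, and Mbnl3, a relative of Mbnl1, had log2 fold changes of −2.87 and −2.58. All of these also passed with the trends removed. In shControl1, however, Oprk1 was at 0.615 and 0.483 CPM, Trhr at 2.27 and 1.55 CPM, Npy2r at 1.88 and 0.741 CPM and Nts at 1.27 and 0.934 CPM, far below shControl2. Against that control Trhr (1.52, adjusted p = 0.00748) and Mbnl3 (1.6, adjusted p = 0.0218) were higher in shAdar1.

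The 10 largest increases included 5 histone genes and the RNA of RNase P. Gdf1 had 16.5 and 33.6 CPM in shAdar1 (363 and 910 counts) and no count in either shControl2 sample. Against a floor of 3 counts over the group it was at least 358-fold higher, but shControl1 had 1.38 and 26.3 CPM, and Gdf1 shares a transcript with Cers1, so that the assignment of its reads is uncertain. Without shControl2 replicate 1 or 2 its adjusted p was 0.0524 and 0.0791. Ndufab1, a subunit of respiratory complex I, rose to 24.6 and 23.6 CPM in shAdar1, against 4.53 and 4.02 CPM in shControl2 (log2 fold change 2.49 ± 0.15 SE, adjusted p = 0.000136), and by 1.93 with the trends removed. Spryd3 rose to 84.9 and 68.7 CPM in shAdar1, against 17.0 and 12.5 CPM in shControl2 (log2 fold change 2.38 ± 0.22 SE, adjusted p = 0.000232, and 2.12 with the trends removed). Myl12a, a myosin light chain, rose to 5.10 and 9.14 CPM in shAdar1, against 1.43 and 1.32 CPM in shControl2. Rpph1, the RNA of RNase P, rose to 883 and 859 CPM in shAdar1, against 193 and 122 CPM in shControl2, but with the trends removed its log2 fold change of 2.46 became 0.65 (adjusted p = 0.114). The histone genes Hist1h3f, Hist4h4 and Hist2h3c2 had log2 fold changes of 2.55, 2.43 and 2.41 as counted, and Hist2h3c2 did not pass with the trends removed (adjusted p = 0.136), without shAdar1 replicate 2 (0.0882) or without shControl2 replicate 2 (0.12). Of these genes only Spryd3 also rose against shControl1 (adjusted p = 0.0322).

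Some genes stood apart from both control hairpins. Of 10560 genes with a gene name and at least 5 CPM, 260 were higher (2.46%) and 257 lower (2.43%) in shAdar1, which means that they passed the test against each control with no overlap among the 6 samples. The comparisons with the 2 controls share the shAdar1 samples. These numbers are from the fits as counted. Over all tested genes, whatever their level or overlap, 274 were higher and 294 lower against both controls as counted. Of all tested genes, 130 were higher and 130 lower against both controls in both kinds of fit, as counted and with the trends removed. Dgkk, a diacylglycerol kinase, fell to 8.06 and 7.67 CPM in shAdar1, against 46.7 and 54.3 CPM in shControl2 and 22.1 and 29.1 CPM in shControl1 (log2 fold change against shControl2 −2.68 ± 0.17 SE, adjusted p = 0.000136). Hmgcll1, a lyase of ketone body synthesis, fell to 9.98 and 9.77 CPM in shAdar1, against 42.6 and 50.1 CPM in shControl2 and 33.9 and 35.8 CPM in shControl1 (−2.23 ± 0.16 SE, adjusted p = 0.00016). Gabrq, the theta subunit of GABA type A receptors, fell to 1.78 and 0.774 CPM in shAdar1, against 8.06 and 8.40 CPM in shControl2 and 6.49 and 6.28 CPM in shControl1. Krt222 fell to 4.19 and 3.72 CPM in shAdar1, against 12.1 and 12.7 CPM in shControl2 and 13.3 and 12.2 CPM in shControl1. Scn9a, the sodium channel Nav1.7, fell to 2.14 and 2.36 CPM in shAdar1, against 9.02 and 12.6 CPM in shControl2 and 5.26 and 6.51 CPM in shControl1. Ano3, a membrane protein of the anoctamin family, fell to 6.97 and 11.2 CPM in shAdar1, against 19.9 and 26.3 CPM in shControl2 and 28.5 and 35.0 CPM in shControl1. All 6 also passed with the trends removed, Ano3 narrowly (adjusted p = 0.0496).

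On the rising side, Arhgap28, a GTPase-activating protein, rose to 30.5 and 25.3 CPM in shAdar1, against 6.49 and 4.34 CPM in shControl2 and 8.07 and 6.60 CPM in shControl1. Its log2 fold change against shControl2 was 2.36 ± 0.56 (SE, adjusted p = 0.011), and 2.58 with the trends removed (adjusted p = 0.0129). Without shControl2 replicate 2 its adjusted p was 0.117. The other 5 genes named by the same rule have transcripts of 455 to 538 nucleotides: Mt3, a metallothionein, and the histone genes Hist1h2bh, Hist1h2bm, Hist1h2bk and Hist1h4a. None of the 5 passed against shControl2 with the trends removed, and in each the shAdar1 replicates lay far apart. Without shAdar1 replicate 2, the adjusted p was 0.291 for Hist1h2bh, 0.11 for Hist1h2bm, 0.0721 for Hist1h2bk and 0.122 for Mt3. Without shControl2 replicate 2 it was 0.193, 0.136, 0.107 and 0.143 for the same genes, and without shControl2 replicate 1 it was 0.0928 for Hist1h2bh and 0.0549 for Mt3. Mt3 had 17.4 and 41.0 CPM in shAdar1, against 11.8 and 9.31 CPM in shControl2 and 12.7 and 7.54 CPM in shControl1.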

How the data were processed

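RNA of 12 libraries (10 samples in 5 groups of 2) was depleted of ribosomal RNA, so that transcripts without a poly(A) tail are kept. The authors deposited, per the file headers, RSEM gene tables with unnormalised expected counts, mean transcript and effective lengths and TPM, and site tables with counts of unedited (A) and edited (G) reads and the level as a fraction on mm9. The submitters' processing notes list DESeq2 1.20.0, RSEM 1.2.30, SAMtools 1.4, STAR 2.5.4b and Trim Galore 0.4.5 without a role. How sites were chosen is not stated in those sources, and mm9 positions were not matched to genes.

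The 3 technical libraries of shAdar2 replicate 1 were summed. Expected counts were rounded, filtered with filterByExpr, scaled by TMM and put to the quasi-likelihood F test of edgeR 4.0.16 in R 4.3.3, with Benjamini-Hochberg adjustment, over all 10 samples. Sites were tested on A and G reads of the 4 samples with a coverage coefficient per library. Whether replicates come from separate dissections is not stated in the labels used. The p-values therefore rest on the spread between samples of a group as labelled, which the gene test estimated over all 10 samples. Trends on length (deposited) and GC (longest GENCODE M21 transcript of the symbol, found for 95.1% of tested genes) were estimated per sample by robust spline regression and entered as offsets. Both tests were also run on simulated data, and the outcome is not reported here.

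The comparison and the 30 gene lists were chosen with earlier results of these data known. The rule named the editing enzymes and Zfr, the 10 largest increases and decreases among called genes with at least 5 CPM, non-overlapping groups and a gene name other than a Gm number or Rik name, members of each list with the lowest p, and 6 genes each way that stood apart from both controls. For sites it took the 10 largest decreases and 4 largest increases, at most 2 per cluster. Alternatives were DESeq2 1.42.0 and its size factors, other filters and coverage minimums, Fisher's exact test, a replicate block, each sample left out, and the other control hairpin. The length and GC fits were added after seeing the data. Results of lists not described are in single values only: as counted, Homer1 was the 1 immediate early gene of 20 that passed, no perineuronal matrix gene passed (0 of 11), 1 of 7 microglia genes was lower, 1 of 12 endothelial, mural and fibroblast genes was higher and 1 lower, and 1 of 8 secreted Wnt antagonists was lower (Dkk3). With the trends removed, Homer1 did not pass and 2 other immediate early genes were lower, 1 perineuronal matrix gene was higher, and 1 gene was higher and none lower of the endothelial, mural and fibroblast list. Some genes that the rule named are not reported here.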

Additional observations from a re-analysis of the deposited data

How the results depend on the processing

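Leaving out 1 sample gave 956 to 1970 genes higher and 814 to 1642 lower in shAdar1, 26 to 101 sites edited less, 0 to 11 edited more and a mean change in level of −6.53 to −4.48 percentage points. With length and GC trends removed, 1843 genes were higher and 1083 lower, and with the samples left out in turn 941 and 614 (shAdar1 replicate 1), 1357 and 583 (shAdar1 replicate 2), 1023 and 527 (shControl2 replicate 1) and 427 and 194 (shControl2 replicate 2). With shControl1 as control there were 1380 genes higher and 1020 lower (1400 and 1266 with the trends removed), 299 sites edited less and a mean change of −11.1 points. The mean of both control hairpins gave 1637 and 940 genes. The 3 changes of depth rules moved the site counts: at least 10 reads gave 255 less and 10 more, at least 50 reads gave 23 less and 1 more with a mean change of −3.11, and no minimum of edited and unedited reads gave 49 less and 0 more. DESeq2 gave 2523 genes each way. In each case the cause was not tested, apart from the change in the number of sites or samples that a setting makes.

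Deviations of same-numbered samples correlated at 0.0702 over genes and 0.113 over sites. With 2 pairs, these values cannot decide whether samples of the same number come from the same dissection. The replicate block gave 2847 genes higher and 2066 lower, 112 sites edited less and 2 edited more, and 1824 and 1081 genes with the trends removed.

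Of the 86 named genes, 31 changed sign against shControl1, to 0.14 for Zfr, 1.52 for Trhr, 0.24 for Npy2r, 1.6 for Mbnl3, 1.62 for Nts, 0.05 for Eif2ak2, 0.46 for Slc7a11, 0.56 for Nova1, 0.17 for Ago3, 0.33 for Gria2, 0.18 for Grik3, 0.61 for Grm5, 0.88 for Cplx2, 0.61 for Tbr1, 0.72 for Nrgn, 0.94 for Calb1, 0.06 for Gad2, 0.96 for Slc1a2, 0.29 for Mbp, 2.2 for Dcn, 0.55 for Dkk3, 0.03 for Unc80, 0.49 for Meg3, 0.51 for Malat1, −0.18 for Adarb1, −0.25 for Ndufab1, −0.46 for Ifi27, −0.41 for Bax, −0.63 for Grm2, −0.17 for Rab3a and −0.00 for Stmn1. Against both controls it was −0.01 for Adarb1, 0.05 for Cplx2, 0.04 for Tbr1, 0.04 for Slc1a2 and 0.13 for Dcn. Adarb1 ranged over −0.05 to 0.31 with 1 sample left out, Gria2 was at 0.11 with the trends removed, and site 3387771 was at −0.33 points against shControl1.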
